A study of Homo sapiens with 14 samples.

Results

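Light polysome mRNA is the messenger RNA that sedimented with few ribosomes, 2 to 3 by the study's account, in a sucrose gradient of MDA-MB-231 cell lysate. It was compared between cells with a short hairpin RNA (shRNA) against DAP5 (MB-231-shDAP5) and cells with a non-silencing shRNA (MB-231-shNSi), by the 4 libraries titled light polysome. The genes described are those with at least 10 read counts in 2 or more of these 4 libraries, which are 15620 of the 58434 gene symbols in the deposited count table. The count minimum used no difference between the cell lines.

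MDA-MB-231 cells are a long-established breast cancer line of human origin and mesenchymal character. Each group was a stable line carrying 1 doxycycline-inducible lentiviral hairpin, so a difference between the lines cannot be told apart from an effect particular to 1 hairpin sequence or 1 infected population. Both lines received doxycycline at 1 µg/ml for 6 days, which includes the control, and were lysed for polysome profiling. Each line was sampled as 2 replicates, called 1 and 2, which the study describes as independently performed. The whole series has 14 libraries: total, light and heavy polysome mRNA of both lines, and a moderate polysome pool of the shNSi line alone. The p-values measure the spread between these replicates, and nothing in the labels ties a replicate of one line to a replicate of the other.

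DAP5, encoded by EIF4G2, is a relative of the scaffold protein eIF4G that recruits the ribosome to capped mRNA. Unlike eIF4G it has no contact site for eIF4E, the cap-binding protein, and it is known for initiation on mRNAs when eIF4E is limiting. On a gradient, an mRNA that loads fewer ribosomes moves from heavy toward light polysomes, and an mRNA with a short coding sequence sits in light polysomes even when it is well translated. A higher light level can therefore follow from more transcript, from fewer ribosomes per transcript that was heavy, or from more ribosomes per transcript that was in monosomes, and the light libraries alone cannot separate these.

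The hairpin's target is shown because it places the knockdown on the mRNA itself. The site lies in the last exon of EIF4G2, in the 3′ untranslated region, at positions 3696 to 3716 of the 3978 bases of transcript ENST00000339995.9 in GENCODE v29. Its genome position is chr11:10797316-10797336 on the minus strand of GRCh38, in exon 22 of that transcript. It is written as mRNA sense strand, 5′ to 3′, and no base is set in capitals because all 21 bases match the transcript.
EIF4G2 target site: tacctctagtaatgggcttta

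The gene spans chr11:10797050-10809110 in that annotation. In light polysomes EIF4G2 stood at 1742 and 1759 CPM (counts brought to a common library size, here after TMM, a normalization that sets the bulk of genes equal between libraries) in shNSi 1 and 2. It stood at 634 and 757 CPM in shDAP5 1 and 2. Both shDAP5 libraries lay far below both shNSi libraries, and the replicates of each line were close together. In bulk RNA, fewer cells with the transcript and less of it per cell cannot be told apart. The means were 1751 ± 11.7 and 695.5 ± 87.5 CPM (SD, n = 2), a log2 fold change of −1.33 with a standard error of 0.32 and an adjusted p of 0.424 (Benjamini-Hochberg, quasi-likelihood test in edgeR). The exact permutation test of these 4 values gave a two-sided p of 0.333, and no arrangement of 2 and 2 replicates can give less. In total mRNA the gene stood at 1486 and 1431 CPM against 572 and 782 CPM, a log2 fold change of −1.11 that passed the adjusted threshold of 0.05 (adjusted p = 0.0178). It did not pass there with library size in place of TMM (adjusted p = 0.0503) or without shDAP5 total 1 (−0.90, adjusted p = 0.785).

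The light libraries held 25899838 and 28082333 counts for shNSi 1 and 2 and 27941831 and 26571931 for shDAP5 1 and 2, within the range of all 14 libraries, which reached 30795910. Mesenchymal markers were expressed, and so were luminal and epithelial ones at a lower summed level. All 8 mesenchymal markers were members, with VIM, a mesenchymal filament protein, at 888 to 2323 CPM, and CD44 and SPARC were lower in shDAP5 at an unadjusted p under 0.05. Their summed level was 5165 and 5399 CPM in shNSi and 6043 and 4114 CPM in shDAP5. Among 9 luminal and epithelial markers 7 were members, summing to 435 and 737 CPM against 498 and 400 CPM. The estrogen receptor ESR1 was at 0.156 to 0.605 CPM, so that level lay in the other members and ESR1 does not stand for the list. PGR had no read in these libraries, and CDH1 had 1 and 1 counts in shNSi and 8 and 3 in shDAP5. Of 6 blood markers 1 was a member, CD14 at 0.492 to 1.25 CPM, and CD3E and HBB had no read in these libraries. PTPRC had 0 and 0 counts in shNSi and 7 and 2 in shDAP5, and HBA1 had 4 counts in shNSi light 1 alone. Of 5 endothelial markers 1 was a member, KDR at 0.719 to 1.01 CPM, and CDH5 had no read. VWF had 14 and 5 counts in shNSi and 1 and 2 in shDAP5, and TEK had 2 counts in shNSi light 1 alone. PECAM1 and the mitochondrially encoded mRNAs were not analysed here.

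The labels leave a doubt about what the shDAP5 libraries are. They are titled light, but they carry the column code that the shNSi line uses for its moderate pool. The distance between 2 libraries was taken as the SD across 14736 genes of the difference in log2 CPM. The shDAP5 light libraries were 0.419 and 0.400 from shNSi light 1, and 0.625 and 0.598 from shNSi light 2. From the 2 shNSi moderate libraries they were 0.778 to 1.10 away, so by their values they were nearer to the shNSi libraries titled light. They were compared with light by title, and the moderate pool is given as a second control further on. A like doubt holds for the shDAP5 libraries used here as total mRNA, which are titled total polysome, while the shNSi ones are titled total. They were taken as total mRNA because both lines share the column code for total. If they hold polysomal RNA alone, each total mRNA difference and each light over total ratio compares unlike samples.

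The shNSi light libraries differed from each other more than the shDAP5 ones did, with a distance of 0.595 against 0.297. shNSi light 2 was nearer to shNSi total 2 (0.540) and shNSi moderate 1 (0.565) than to shNSi light 1. Abundant mRNAs of mid-length coding sequence show the gap. ACTB, which encodes beta-actin, stood at 2207 CPM in shNSi light 1 and 6040 CPM in shNSi light 2, with shDAP5 at 2505 and 2801 CPM in between. GAPDH, a glycolytic enzyme, stood at 1966 and 4653 CPM against 2215 and 1514 CPM. A gene that is high in shNSi light 2 alone can look lower in shDAP5, so values without that library are given beside many of the results. Which of the 2 shNSi light libraries is the odd one cannot be told from these values.

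**Figure D1:**
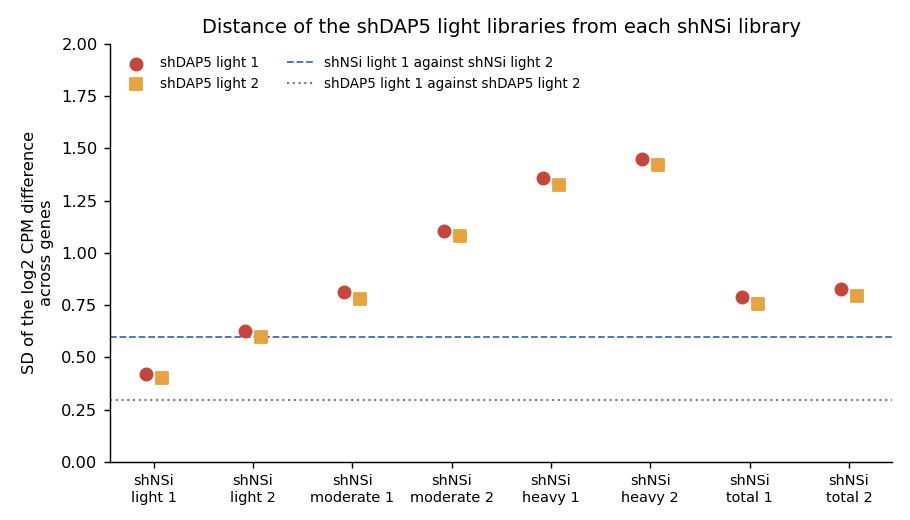
Distance of the 2 shDAP5 light libraries (points) from each of the 8 shNSi libraries, as the SD across 14736 genes of the difference in log2 CPM. Both lie nearest to shNSi light 1, at 0.419 and 0.400, while the dashed line marks the distance between the 2 shNSi light libraries, 0.595, and the dotted line that between the 2 shDAP5 light libraries, 0.297.

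Across the 15620 genes, shDAP5 and shNSi light polysomes differed little in the median gene, with a median log2 fold change of −0.01 and an SD of 0.56. From the 5th to the 95th percentile the log2 fold changes ran from −0.86 to 0.84, with 517 genes below −1 and 498 above 1. No gene passed the adjusted threshold by edgeR's quasi-likelihood test (0% of genes; the smallest adjusted p was 0.255). At an unadjusted p under 0.05, 1332 genes (8.53%) were called, 803 lower (5.14%) and 529 higher (3.39%). DESeq2 called 108 genes at its adjusted threshold, and limma on quantile-normalized values called 0, with 1340 at an unadjusted p under 0.05.

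The direction of these unadjusted calls depended on scaling. Lower genes made up 60.3% of them with TMM, 66.4% with DESeq2's size factors, 53.8% with limma and 45.2% with library size alone (578 lower, 702 higher). Both shDAP5 libraries lay beyond both shNSi libraries in 6478 genes (41.5%), lower in 3140 (20.1%) and higher in 3338 (21.4%). On simulated counts made from these libraries, the same test recovered 78% of 100 genes with a log2 change of 2 and 6% of 100 with a log2 change of 1, so a 2-fold difference was mostly not detectable with these replicates.

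The 10 lowest and 10 highest genes were taken from the 831 genes with a mean of at least 10 CPM, an unadjusted p under 0.05 and no overlap between the lines. Since these values chose them, they are a description. Their positions are those of GENCODE v29 on GRCh38. The secreted proteases MMP1 and ADAMTS1 stood among the lowest. MMP1 (chr11:102789920-102798160), the interstitial collagenase that cuts fibrillar collagen, was at 44.1 and 133 CPM in shNSi 1 and 2 and at 7.43 and 7.67 CPM in shDAP5 1 and 2. Both shDAP5 values lay well below the lower shNSi value, a log2 fold change of −3.55 with a standard error of 0.49 and an adjusted p of 0.255. Without shNSi light 2 it was −2.55, and without shNSi light 1 −4.14.

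ADAMTS1 (chr21:26835747-26845409), which cuts proteoglycans, was at 15.4 and 20.3 CPM against 2.76 and 3.83 CPM. Its log2 fold change was −2.44 (standard error 0.35), with both shDAP5 values far under both shNSi values.

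IGFN1 (chr1:201190825-201228952), which encodes a protein of immunoglobulin and fibronectin domains best known from skeletal muscle, was at 33.3 and 21.6 CPM in shNSi and 2.30 and 5.17 CPM in shDAP5. That is a log2 fold change of −2.88 (standard error 0.43). KCNAB2 (chr1:5991466-6101193), an accessory subunit of voltage-gated potassium channels, was at 56.3 and 64.7 CPM against 14.4 and 16.02 CPM. It had the smallest unadjusted p of all members, 3.11e-05 by edgeR, and a log2 fold change of −1.99 (standard error 0.27). CD63 (chr12:55725323-55729707), a tetraspanin of lysosomes and secreted vesicles, was at 397 and 775 CPM against 181 and 159.5 CPM. Its log2 fold change was −1.78 (standard error 0.38), or −1.23 without shNSi light 2 and −2.19 without shNSi light 1.

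HLA-B and HLA-C, MHC class I heavy chains that present peptides to T cells, were also among the 10 lowest. HLA-B (chr6:31269491-31357188) was at 57.4 and 365 CPM in shNSi 1 and 2 and at 41.1 and 42.9 CPM in shDAP5. HLA-C (chr6:31268749-31272130) was at 35.8 and 149 CPM against 25.1 and 23.5 CPM. In both shNSi light 2 was high and shNSi light 1 lay close to the shDAP5 values. The log2 fold changes of −2.33 and −1.93 were −0.46 and −0.57 without shNSi light 2, and −3.12 and −2.62 without shNSi light 1. Both genes are near-identical in sequence, and in GENCODE v29 the HLA-B model overlaps HLA-C, so the split of reads among them is uncertain.

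GPC1 (chr2:240435671-240468078), a heparan sulfate proteoglycan, showed the same arrangement. It was at 7.04 and 28.4 CPM in shNSi and 5.79 and 4.01 CPM in shDAP5. Its log2 fold change of −1.85 (standard error 0.57) was −0.53 without shNSi light 2 and −2.53 without shNSi light 1. Of the 10 lowest genes, 8 passed the adjusted threshold with DESeq2, and HLA-B (adjusted p = 0.490) and GPC1 (0.0504) did not. DESeq2 called 79 of 15620 genes lower. It used the same 4 libraries that chose these 10, so their passing is not independent evidence.

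On the higher side, ADIRF (chr10:86968192-86983934), an adipogenesis regulatory factor, was at 6.09 and 4.20 CPM in shNSi and 22.5 and 19.1 CPM in shDAP5. The values of the lines stood well apart, with a log2 fold change of 2.01, a standard error of 0.32 and an adjusted p of 0.304 by edgeR. SREBF1 (chr17:17810399-17837002), which encodes the lipid synthesis regulator SREBP-1, was at 17.7 and 39.4 CPM against 97.6 and 81.6 CPM, a log2 fold change of 1.65 (standard error 0.38). It was 2.335 without shNSi light 2 and 1.185 without shNSi light 1. PLLP (chr16:57248547-57284687), a membrane protein of myelin and epithelia, was at 4.20 and 6.73 CPM against 20.9 and 13.4 CPM, also a log2 fold change of 1.65. FAM133A (chrX:93674013-93712274) was at 25.7 and 16.2 CPM against 65.3 and 65.4 CPM, a log2 fold change of 1.64 (standard error 0.30).

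IL6, IFITM1 and SLCO4A1-AS1 were also among the 10 highest. IL6 (chr7:22725884-22732002), the acute-phase cytokine, was at 28.98 and 43.8 CPM in shNSi and 106 and 98.1 CPM in shDAP5. Its log2 fold change was 1.49, with a standard error of 0.30 and an adjusted p of 0.405, and the replicates of each line were closer to each other than to the other line. IFITM1 (chr11:313506-315272), an interferon-induced membrane protein with near-identical paralogs, was at 5.15 and 4.98 CPM against 21.1 and 10.3 CPM, a log2 fold change of 1.63. SLCO4A1-AS1 (chr20:62663019-62666724), a noncoding RNA antisense to a transporter gene, was at 94.9 and 115 CPM against 336 and 231 CPM, a log2 fold change of 1.43. The name of the deposited table holds the letters rev, which may mark a strand setting but are not explained, so the split of reads between it and its antisense partner is uncertain.

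The last 3 genes were set mainly by shDAP5 light 1. MARCKSL1 (chr1:32333832-32336379), an actin-binding protein, was at 54.3 and 72.7 CPM in shNSi and 272 and 112 CPM in shDAP5. SOX4 (chr6:21592768-21598619), a developmental transcription factor, was at 5.68 and 7.199 CPM against 25.5 and 10.99 CPM. RASD1 (chr17:17494437-17496395), a glucocorticoid-induced small GTPase, was at 12.2 and 8.52 CPM against 38.3 and 17.4 CPM. In each, shDAP5 light 1 was the highest of the 4 libraries by a wide margin. Their log2 fold changes of 1.60, 1.50 and 1.43 were 0.82, 0.77 and 0.75 without shDAP5 light 1, and that of IFITM1 was 1.02. Of the 10 highest genes, 8 passed the adjusted threshold with DESeq2, and SOX4 (adjusted p = 0.0631) and RASD1 (0.0699) did not. DESeq2 called 29 of 15620 genes higher, on the same libraries that chose these 10, so this too is not independent evidence.

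**Figure D2:**
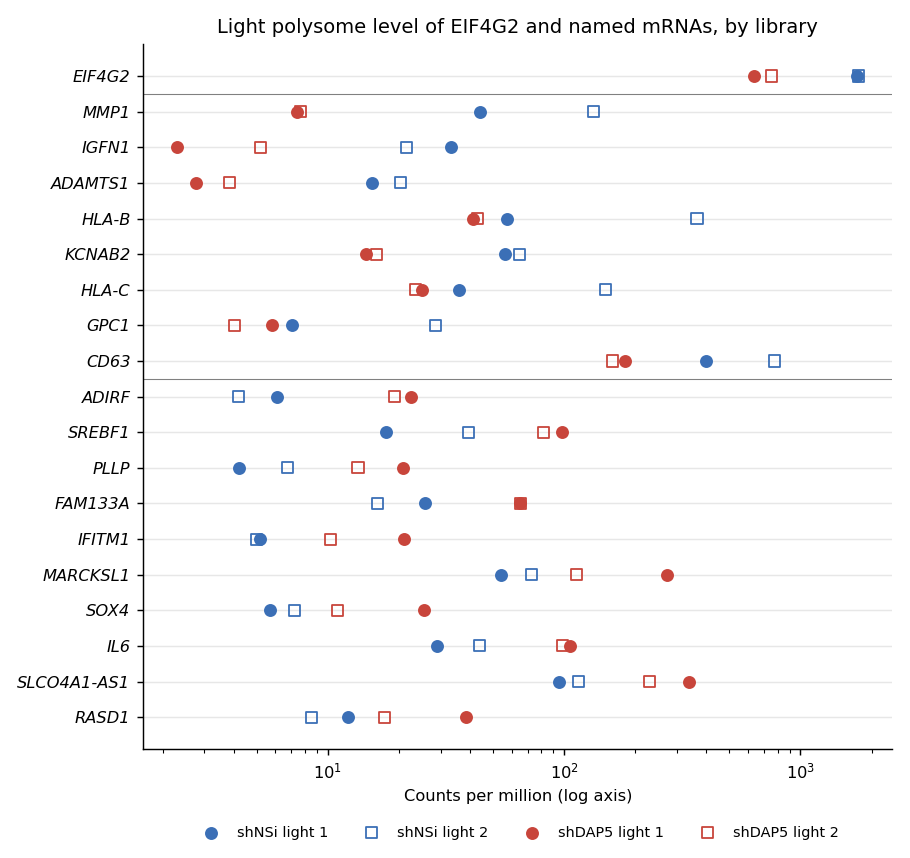
Light polysome level (CPM, log axis) of EIF4G2, of 8 of the 10 lowest genes (middle block) and of the 10 highest genes (bottom block) in each of the 4 light libraries. The genes were chosen for not overlapping between lines. For HLA-B, HLA-C and GPC1 the open blue square (shNSi light 2) stands far to the right of the other 3 libraries, as in HLA-B at 365 CPM against 57.4 CPM in shNSi light 1.

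The same genes were compared in total mRNA, which used other libraries of the same cultures, with the doubt about the titles of the shDAP5 ones. All 10 lowest genes had a negative log2 fold change in total mRNA, from −3.61 to −0.85, and 8 of them had an unadjusted p under 0.05. For HLA-B, HLA-C and GPC1 shNSi 2 was again far above the other libraries. HLA-B was at 162 and 529 CPM in shNSi total 1 and 2 and at 125 and 159 CPM in shDAP5. HLA-C was at 86.8 and 190 CPM against 65.8 and 72.0 CPM, and GPC1 at 21.7 and 52.1 CPM against 15.6 and 14.7 CPM. The 10 highest genes had a log2 fold change from 1.10 to 1.96 in total mRNA, all at an unadjusted p under 0.05. IGFN1 (−2.90, adjusted p = 0.000176), KCNAB2 (−1.64, 0.00305), ADAMTS1 (−1.97, 0.0130) and FAM133A (1.13, 0.0346) passed the adjusted threshold there, where 0.351% of 15084 genes did. MMP1 was at −3.61 in total mRNA (adjusted p = 0.0593).

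More broadly, 791 of the 803 genes lower in light at an unadjusted p under 0.05 could be tested in total mRNA, with a median log2 fold change of −0.59 there. Of them 478 were lower in total mRNA at the same threshold, against 1031 of the 14847 members tested. Those 478 are 59.5% of the light genes and 46.4% of the members lower in total mRNA. Of the 529 genes higher in light, 470 could be tested, with a median of 0.60 in total mRNA, and 229 were higher there at the same threshold (43.3% of the light genes and 30.9% of the members higher in total mRNA), which 5% of all genes tested in total mRNA passed on that side.

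**Figure D3:**
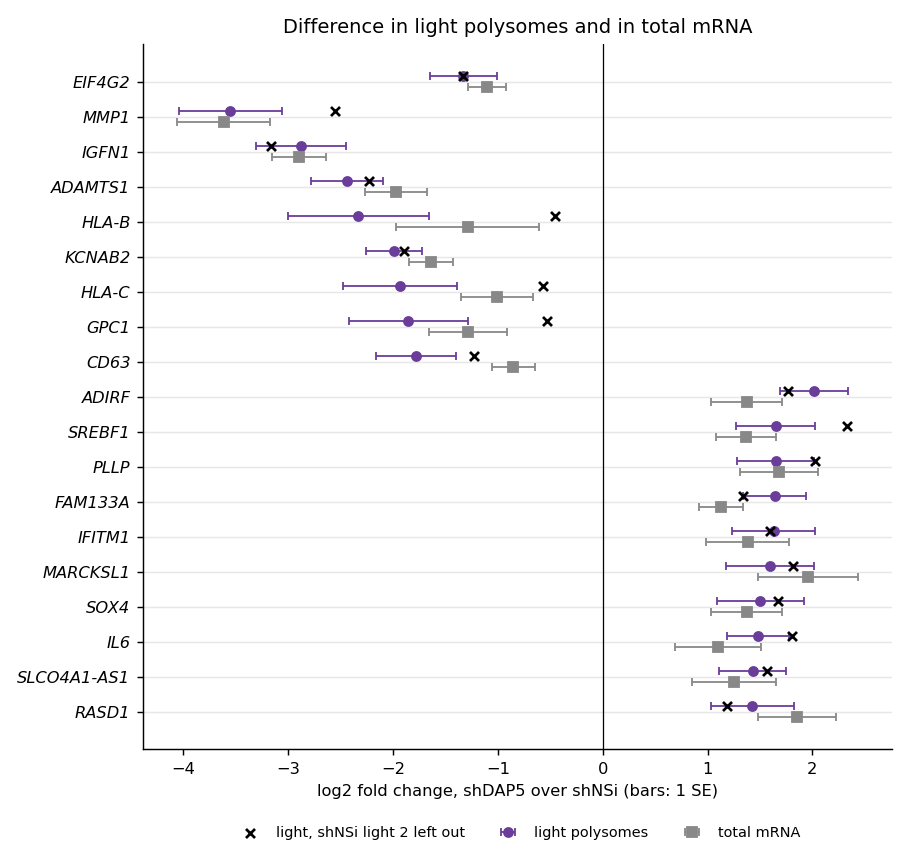
Log2 fold change of shDAP5 over shNSi in light polysomes (circles) and in total mRNA (squares), with bars of 1 standard error, and in light polysomes with shNSi light 2 left out (crosses). The genes were chosen on the circles. The 18 genes plotted below EIF4G2 lie on the same side of 0 in both, and the crosses of HLA-B, HLA-C and GPC1 lie nearer to 0, at −0.46 to −0.57.

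The matrix metalloproteinase and plasminogen list holds the secreted proteases that break down extracellular matrix, the plasmin system that activates some of them, and the inhibitors of both. Of 22 genes 18 were members, and 8 were lower at an unadjusted p under 0.05 and 0 higher, against 5.14% and 3.39% of all members. None passed the adjusted threshold. Their median log2 fold change was −0.86, and −0.65 without shNSi light 2. Among the 8 were MMP1, MMP3, MMP15, PLAUR, SERPINB2, SERPINE2 and TIMP2, of which MMP15, PLAUR and SERPINB2 are named after their values were seen. PLAUR, the urokinase receptor, was at 105 and 227 CPM in shNSi and 53.9 and 62.1 CPM in shDAP5. TIMP2, an inhibitor of metalloproteinases, was at 509 and 563 CPM against 244 and 331 CPM, a log2 fold change of −0.90. Urokinase itself, PLAU, overlapped, with 223 and 328 CPM against 228 and 236 CPM. The list mixes proteases, MMP1, MMP3 and MMP15, with inhibitors, SERPINE2, SERPINB2 and TIMP2, and both kinds were among the 8. In total mRNA 9 of 18 were lower and 2 passed the adjusted threshold, where 6.99% of all genes tested were lower at the unadjusted one.

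Of the 16 mRNAs that the study listed as reduced on polysomes, which it chose from these samples, 15 were members. That choice means their direction is not independent evidence. In light polysomes 4 were lower at an unadjusted p under 0.05, MMP1, MMP3, SERPINE2 and ETS1 (5.14% of all members were), and 10 lay below both shNSi libraries without overlap and 1 above both, against 20.1% and 21.4% of all members. The median was −0.47, and −0.23 without shNSi light 2. MMP3, stromelysin, was at 1.51 and 4.44 CPM against 0.489 and 0.579 CPM, and the serpin SERPINE2 at 32.7 and 71.9 CPM against 22.2 and 23.3 CPM. Their log2 fold changes of −2.47 and −1.20 were −1.505 and −0.53 without shNSi light 2. ETS1, a transcription factor of invasion genes, was at 180 and 162 CPM against 79.9 and 109 CPM, a log2 fold change of −0.85. JUN, an AP-1 subunit, was at 190 and 804 CPM against 247 and 343 CPM, so that shNSi light 2 alone was high. The kinase CDK12 was at 40.3 and 44.4 CPM against 32.0 and 42.9 CPM and overlapped.

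Among the other listed mRNAs EGFR, the growth factor receptor, was at 98.8 and 59.2 CPM in shNSi and 43.5 and 62.0 CPM in shDAP5. The integrin subunits ITGA3, ITGA5 and ITGAV, receptors for matrix proteins, had log2 fold changes of −0.47, −0.43 and −0.31, and ITGA1 had 0.32. Without shNSi light 2 these were −0.22, −0.23, −0.06 and 0.09. The laminin chain LAMC1 was at −0.23, and the cytokine receptor OSMR at −0.34, or −0.16 without shNSi light 2. MYCL, a MYC family member, was at 1.17 and 1.13 CPM in shNSi and 0.698 and 0.398 CPM in shDAP5, a log2 fold change of −1.06 with both shDAP5 values below both shNSi values. None of these had an unadjusted p under 0.05 by edgeR's test. FLI1, an ETS family transcription factor, was no member because only shNSi light 1 had 10 or more counts. It had 71 counts in shNSi light 1, 6 in shNSi light 2, and 1 and 2 in the shDAP5 libraries.

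Among all integrin subunits 15 of 26 were members. ITGAD and ITGB5 were lower and ITGAE was higher at an unadjusted p under 0.05, against 5.14% and 3.39% of all members, and ITGB5 is named after its values were seen. ITGB5, a beta chain for vitronectin, was at 78.1 and 99.9 CPM in shNSi and 55.7 and 54.3 CPM in shDAP5. ITGAD was at 0.946 and 1.05 CPM against 0.209 and 0.0723 CPM, from 25 and 27 counts in shNSi and 6 and 2 in shDAP5. It met the count minimum through the shNSi libraries alone, so its lower call was partly set by that filter. Its log2 fold change ran from −3.70 to −0.88 over the alternatives. ITGAE, the alpha chain that binds E-cadherin on lymphocytes, was at 64.6 and 38.2 CPM against 93.2 and 97.7 CPM, a log2 fold change of 0.89, or 0.56 without shNSi light 2. Of 28 collagen and laminin chains tested, 4 were lower (LAMB3 and, named after their values were seen, LAMA1, COL4A1 and COL4A2) and 1 higher, against the same shares of all members. LAMA5, a basement membrane laminin, was the higher one, at 61.6 and 71.0 CPM in shNSi and 136 and 198 CPM in shDAP5, a log2 fold change of 1.33 with a standard error of 0.30 and an adjusted p of 0.424. LAMB3, a chain of epithelial laminin, was at 84.9 and 202 CPM against 69.8 and 65.0 CPM, a log2 fold change of −1.09, or −0.34 without shNSi light 2.

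Chaperones of the endoplasmic reticulum, which fold secreted proteins and are induced in the unfolded protein response, had more lower than higher calls. Of 17 members, 6 were lower at an unadjusted p under 0.05 and 0 higher, against 5.14% and 3.39% of all members, with a median log2 fold change of −0.49, and −0.13 without shNSi light 2. CRELD2 was at 9.23 and 21.1 CPM against 5.51 and 5.57 CPM, and MANF at 79.9 and 115 CPM against 54.9 and 41.3 CPM. Their log2 fold changes of −1.45 and −1.02 were −0.74 for each without shNSi light 2. HSP90B1, the chaperone GRP94, stood the other way, at 201 and 291 CPM in shNSi and 391 and 302 CPM in shDAP5, above both shNSi values in both replicates. In total mRNA the median of the list was −0.56 and 9 members were lower at the same threshold, where 6.99% of all genes tested were.

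In the eIF4F and eIF4G family 12 of 12 genes were members and EIF4G2 was the only one of them with an unadjusted p under 0.05. EIF4G1, the main scaffold, was at 295 and 367 CPM in shNSi and 303 and 336 CPM in shDAP5, and EIF4G3 at 51.0 and 46.2 CPM against 60.2 and 51.2 CPM. EIF4E, the cap-binding protein, was at 129 and 78.2 CPM against 139 and 158 CPM, a log2 fold change of 0.53 (standard error 0.32), or 0.20 without shNSi light 2. EIF4A1, the helicase, had only 1.10 to 1.74 CPM, and the table gives no sign of how reads over overlapping gene models were assigned. Of 13 eIF3 subunits, EIF3I alone was lower at an unadjusted p under 0.05, where 5.14% of all members were, with 154 and 267 CPM against 133 and 98.7 CPM. Its log2 fold change of −0.86 was −0.42 without shNSi light 2. EIF3D, the subunit that can bind the cap, was at 104 and 203 CPM against 116 and 87.9 CPM and overlapped. The median of the eIF3 list was −0.22, 0.32 without shNSi light 2 and −0.64 without shNSi light 1, so its sign was set by shNSi light 2.

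Cytosolic ribosomal proteins, whose mRNAs are short and carry a 5′ terminal oligopyrimidine tract, had 79 members. Of these none had an unadjusted p under 0.05 in either direction, and the median log2 fold change was −0.07, 0.04 with library size alone, and from −0.185 to 0.03 with each library left out. RPS18 was at 4513 and 4606 CPM in shNSi and 4612 and 4165 CPM in shDAP5. RPL41, among the shortest of all coding sequences, was at 1695 and 952 CPM against 2058 and 2677 CPM, a log2 fold change of 0.84 (standard error 0.38), or 0.47 without shNSi light 2. mRNAs translated through upstream open reading frames in the integrated stress response had a median of 0.16 over 15 members, 1 of them higher at an unadjusted p under 0.05 (3.39% of all members were). The median was 0.06 without shNSi light 2 and 0.31 without shNSi light 1. The higher one was DDIT4, an mTOR inhibitor, at 325 and 354 CPM against 639 and 494 CPM, while ATF4, the response's transcription factor, was at 1573 and 1044 CPM against 1500 and 1521 CPM.

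Of mRNAs reported to use DAP5 through internal ribosome entry sites, all 7 were members, none had an unadjusted p under 0.05, and the median log2 fold change was −0.01, or from −0.29 to 0.19 with each library left out. MYC was at 213 and 310 CPM in shNSi and 215 and 309 CPM in shDAP5. BCL2, XIAP, BIRC2 and APAF1, regulators of cell death, had log2 fold changes of −0.07, 0.14, −0.01 and 0.14, and of 0.12, −0.02, −0.03 and 0.02 without shNSi light 2. BCL2 ran from −0.65 to 0.34 over the alternatives. The cell-cycle kinase CDK1 was at 101 and 362 CPM against 110 and 207 CPM, with shNSi light 2 the highest of the 4 libraries.

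Components of mitochondrial gene expression and respiration had calls on the lower side alone, at shares near the 5.14% of all members. Of 75 mitochondrial ribosomal proteins, 6 were lower and 0 higher at an unadjusted p under 0.05, and 35 lay below both shNSi libraries without overlap, against 20.1% of all members. Their median was −0.37, −0.14 without shNSi light 2 and −0.565 without shNSi light 1. MRPL15 was at 40.6 and 69.1 CPM in shNSi and 32.2 and 23.0 CPM in shDAP5, a log2 fold change of −0.99, or −0.57 without shNSi light 2. Of 74 nuclear-encoded respiratory chain subunits, 5 were lower and 0 higher, and 25 lay below without overlap. Their median was −0.22, −0.07 without shDAP5 light 2 and −0.365 without shDAP5 light 1. NDUFB9 of complex I was at 76.8 and 97.9 CPM against 51.2 and 33.7 CPM, and COX4I1 of complex IV at 333 and 498 CPM against 241 and 192 CPM. ATP5E of the ATP synthase was at 1086 and 573 CPM against 1158 and 1033 CPM, so that 1 shDAP5 value lay within the shNSi range and the other just above it.

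Several lists owed their sign to shNSi light 2. The proteasome, which degrades ubiquitinated proteins, had 30 of 31 members with a negative log2 fold change and a median of −0.51. Of them 7 lay below both shNSi libraries (20.1% of all members did) and 1 was lower at an unadjusted p under 0.05 (5.14% of all members were). The median was 0.14 without shNSi light 2 and −0.93 without shNSi light 1. Its summed level was 4492 CPM in shNSi light 1, 8640 CPM in shNSi light 2, and 4663 and 4697 CPM in shDAP5. Glycolysis and hypoxia genes had a median of −0.52 over 25 members and 0.17 without that library, with summed levels of 8000 and 18955 CPM against 9727 and 8609 CPM. The 4 control mRNAs ACTB, GAPDH, HNRNPD and LMNA had a median of −0.67, 0.18 without it and −1.20 without shNSi light 1, and all of them overlapped.

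Cell cycle and DNA replication genes had a median of −0.19 over 32 members, with 2 lower at an unadjusted p under 0.05 (5.14% of all members were). The median was 0.16 without shNSi light 2 and −0.54 without shNSi light 1. Complement genes had a median of −0.35 over 9 members, 0.26 without shNSi light 2 and −0.56 without shNSi light 1. The complement component C3 was at 0.832 and 17.9 CPM in shNSi and 1.33 and 1.05 CPM in shDAP5, so the lines overlapped at a log2 fold change of −2.97, which was 0.50 without shNSi light 2. Inflammatory cytokines and chemokines had a median of −0.05 over 16 members, with IL6 alone higher, where 3.39% of all members were. The median was 0.56 without shNSi light 2, −0.40 without shNSi light 1 and −0.35 without shDAP5 light 1. CSF3, a granulocyte growth factor, was at 88.0 and 355 CPM against 116 and 87.6 CPM.

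Interferon-stimulated genes were centered at 0.00 over 27 members, with 1 lower at an unadjusted p under 0.05, where 5.14% of all members were. With each library left out the median ran from −0.13 to 0.22. The lower one was BST2, tetherin, at 56.6 and 79.0 CPM in shNSi and 37.3 and 25.2 CPM in shDAP5, a log2 fold change of −1.12. Cholesterol synthesis and uptake genes had a median of −0.14 over 23 members, with 1 lower, and from −0.46 to 0.07 with each library left out. The lower one was MVD of the mevalonate pathway, at 42.6 and 66.4 CPM against 35.5 and 26.03 CPM, a log2 fold change of −0.82, or −0.48 without shNSi light 2.

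Host transcripts of small nucleolar RNAs lay on the higher side. These noncoding transcripts carry snoRNAs in their introns, and several have 5′ oligopyrimidine tracts and short reading frames that ribosomes enter. All 16 had a positive log2 fold change, 12 lay above both shNSi libraries without overlap (21.4% of all members did), and 5 were higher at an unadjusted p under 0.05 (3.39% of all members were). The median was 0.62, 0.95 without shNSi light 1 and 0.42 without shNSi light 2, where the summed level was lowest, 1977 CPM against 3118 CPM in shNSi light 1 and 3455 and 4462 CPM in shDAP5. GAS5 was at 667 and 437 CPM in shNSi and 739 and 845 CPM in shDAP5, and ZFAS1 at 430 and 232 CPM against 510 and 620 CPM. SNHG9 was at 12.8 and 5.29 CPM against 19.9 and 18.4 CPM, a log2 fold change of 1.08 (standard error 0.40), or 0.57 without shNSi light 2. In total mRNA their median was 0.33, with 5 of 16 higher at the same threshold, where 5% of all genes tested were.

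For long noncoding transcripts the direction rested on shNSi light 2. The 753 members that GENCODE v29 classes as long noncoding had a median log2 fold change of 0.30, with 56 higher and 9 lower at an unadjusted p under 0.05, against 3.39% and 5.14% of all members. Their median was −0.06 without shNSi light 2 and 0.91 without shNSi light 1. The 12670 protein-coding members had a median of −0.04, with 379 higher and 751 lower, and 0.02 without shNSi light 2. The 5 members of the nuclear noncoding RNA list had a median of −0.03, and 0.225 without shNSi light 2. MALAT1, a nuclear speckle RNA, was at 14.2 and 12.1 CPM in shNSi and 22.5 and 21.4 CPM in shDAP5, a log2 fold change of 0.74, while NEAT1 of the paraspeckles was at 38.6 and 53.8 CPM against 43.0 and 47.7 CPM. Replication-dependent histones, whose mRNAs lack a poly(A) tail, had a median of 0.32 over 32 of 56 genes, none with an unadjusted p under 0.05. The median was 0.18 without shNSi light 2 and 0.09 without shDAP5 light 1, and they had a summed level that was lowest in shNSi light 2. That level was 240.5 and 110 CPM in shNSi and 258.5 and 176 CPM in shDAP5. Many histone genes are near-identical copies, so their counts are uncertain.

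**Figure D4:**
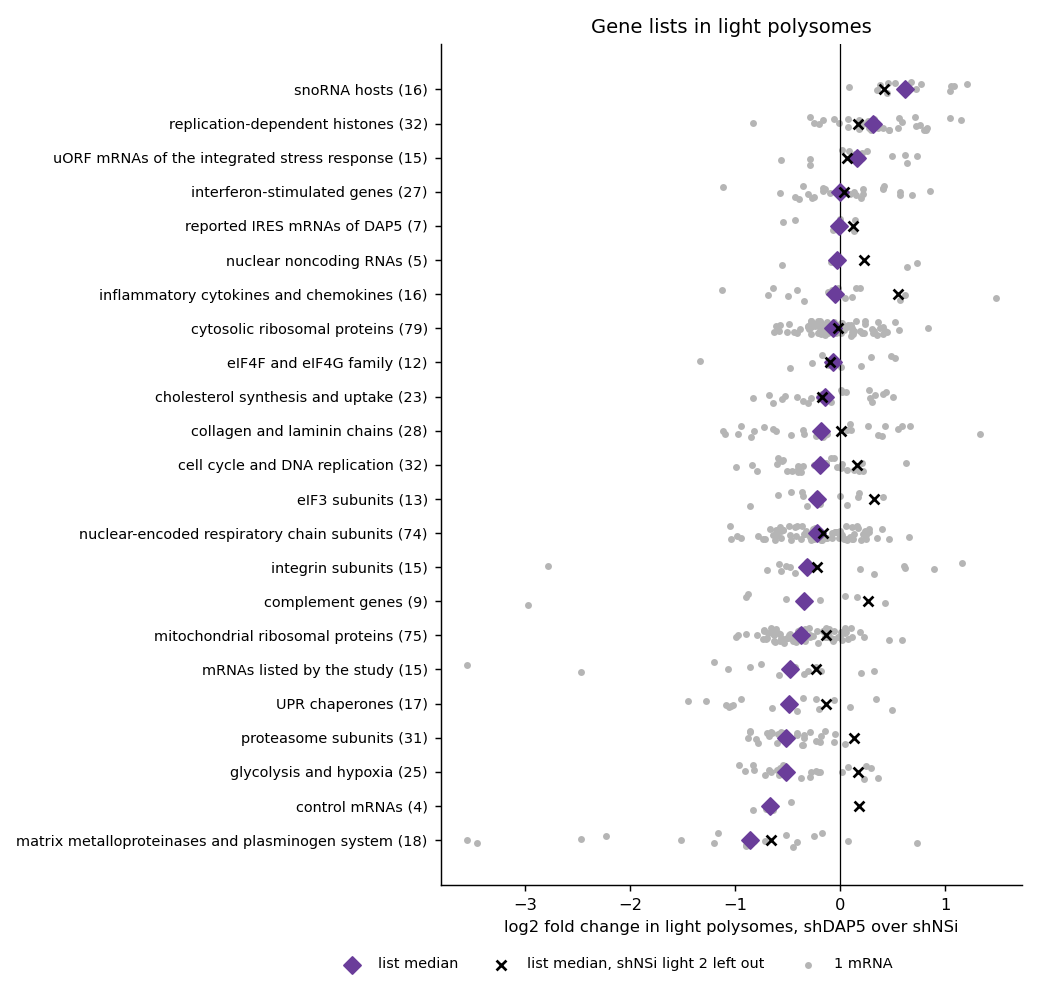
Log2 fold change of shDAP5 over shNSi in light polysomes for each member (grey points) of the gene lists, with the number of members in parentheses, the list median (diamond) and the list median with shNSi light 2 left out (cross). The snoRNA hosts lie at the top, with a median of 0.62, and the metalloproteinase and plasminogen genes at the bottom, with −0.86. For the proteasome, glycolysis and control lists the cross lies to the right of 0, at 0.14, 0.17 and 0.18.

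Coding length was compared with the light difference because it sets where an mRNA can sit on a gradient. Of the members 14081 matched a GENCODE v29 gene by current or older symbol, and the 12670 protein-coding ones were split by coding length into 10 bins of 1267 genes each. Median log2 fold change in light was 0.05 in the bin of shortest genes, −0.19 in bin 3, and 0.12 in the bin of longest genes. Spearman's rho across genes was 0.131, over genes that share libraries and are not independent. The dip in the middle was absent against shNSi light 1, where the shDAP5 mean differed by −0.12 to 0.07 in every bin. Against shNSi light 2 it differed by 0.25 in the first of these bins, −0.28 in bin 3 and 0.27 in the last. Within the control line, shNSi light 2 minus shNSi light 1 was −0.38, 0.29 and −0.28 in these bins, which is the same pattern with the opposite sign. This follows largely from the 2 differences above, which share these libraries, and is no separate evidence. The 2 shDAP5 libraries differed from each other by −0.12 to 0.06. Whether the shNSi light pools were cut at different places on the gradient was not tested.

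Genes lower in light at an unadjusted p under 0.05 had a median coding length of 1140 bases, those higher 1836 bases, and all members 1425 bases. The lower ones also had more reads, with a median level of 30.8 CPM against 9.98 CPM for the higher ones and 18.4 CPM for all members.

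**Figure D5:**
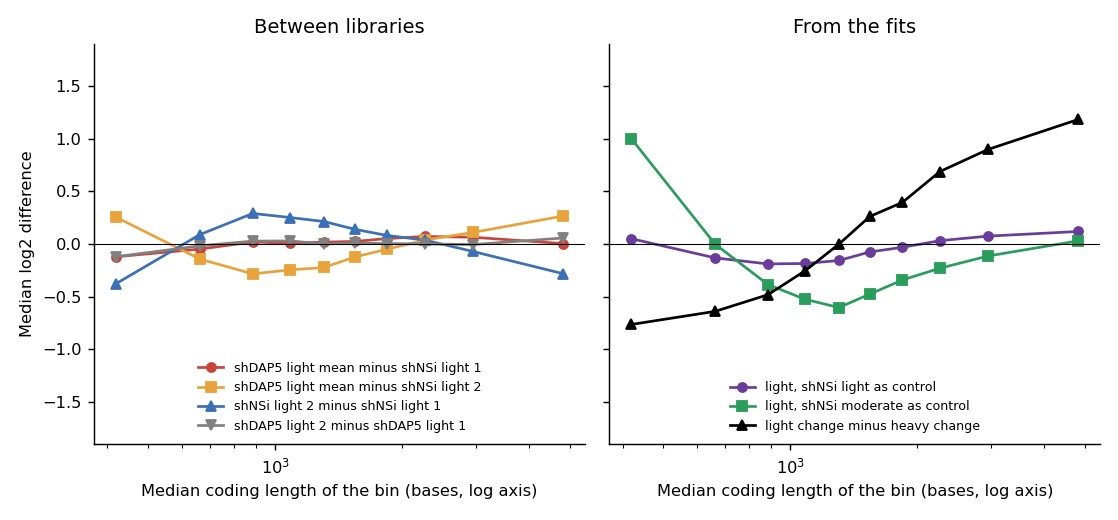
Median log2 difference by bin of coding length (log axis, bases; 1267 genes a bin). On the left, differences between light libraries: shDAP5 minus shNSi light 1 stays between −0.12 and 0.07, whereas shNSi light 2 minus shNSi light 1 runs from −0.38 to 0.29 and back to −0.28. On the right, the fits: the light difference stays between −0.19 and 0.12, the one with the moderate control runs from 1.00 in the shortest bin to −0.60 in bin 5, and the light change minus the heavy change runs from −0.76 to 1.18.

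With the shNSi moderate pool as the control, 3942 of 15497 genes passed the adjusted threshold (25.4%), 2000 lower (12.9%) and 1942 higher (12.5%). The SD of the log2 fold changes was 1.17, against 0.56 with the light control. The count was 395 without shDAP5 light 1, 581 without shDAP5 light 2, 9735 without shNSi moderate 1 and 6984 without shNSi moderate 2. EIF4G2 was at 2570 and 1871 CPM in the moderate pool and 601 and 719 CPM in shDAP5 light, a log2 fold change of −1.75 (adjusted p = 0.0169 by edgeR). It did not pass without shDAP5 light 1 (−1.63, adjusted p = 0.248) or without shDAP5 light 2 (−1.86, 0.168). The median by coding length was 1.00 in the shortest bin and −0.60 in bin 5. The shDAP5 libraries are the same as in the comparison with the light control, so the 2 comparisons are not independent. Against the moderate pool MMP1 had a log2 fold change of −5.02, ADIRF 3.84 and SOX4 1.09 (adjusted p = 0.0914). All 16 snoRNA hosts were higher past the adjusted threshold with this control, with a median of 2.34, and 24 of 31 proteasome members were lower, with a median of −1.61.

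Light translation efficiency was taken as the log2 ratio of light polysome to total mRNA in the same culture, where the shDAP5 denominator is the library titled total polysome. Its difference between the lines was tested as an interaction of fraction and shRNA. By edgeR's quasi-likelihood test 0 of 16083 genes passed the adjusted threshold (0%), as with DESeq2, and 834 (5.19%) had an unadjusted p under 0.05, 481 lower (2.99%) and 353 higher (2.19%). The unadjusted count was 451 by DESeq2. Without shNSi culture 1, 2127 genes passed the adjusted threshold, and without shNSi culture 2, 15 did. The self-test recovered 97% of genes with a log2 change of 2 and 55% of those with a log2 change of 1.

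The genes named from the unadjusted calls are a description. Lowest was RAMP1, a receptor activity modifying protein, whose log2 light over total ratio was 0.77 and 0.72 in shNSi and −0.37 and −0.20 in shDAP5. The difference was −1.13 (standard error 0.24, adjusted p = 0.881). SAP30, a corepressor subunit, MRPL4 of the mitochondrial ribosome, the trafficking GTPase ARF5 and CYC1, cytochrome c1 of complex III, followed at −0.99 to −0.96. Highest was the filament protein SYNM, at −1.84 and −2.49 in shNSi and −1.07 and −0.97 in shDAP5, a difference of 1.23. The mannosyltransferase TMTC3, the nuclear ATPase MORC3, the ribosome-binding protein RRBP1 of the endoplasmic reticulum and the neurotrophin receptor scaffold KIDINS220 followed at 0.96 to 0.90. The 5 lowest genes have coding sequences of 444 to 1071 bases and the 5 highest 2742 to 5313 bases. Across genes the difference in this ratio had a Spearman's rho of 0.31 with coding length.

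EIF4G2 itself had a light over total ratio of 0.14 and 0.15 in shNSi and 0.07 and −0.14 in shDAP5, a difference of −0.19 (standard error 0.31). The metalloproteinase and plasminogen list had a median of −0.12, and the 16 mRNAs listed by the study 0.12. Of those 16 mRNAs 1 was lower and 2 higher at an unadjusted p under 0.05, against 2.99% and 2.19% of all genes tested. Mitochondrial ribosomal proteins had a median of −0.34, with 16 of 75 lower and 0 higher, and respiratory chain subunits −0.20, with 12 of 74 lower and 0 higher, against 2.99% lower of all genes tested. The snoRNA hosts had a median of 0.47 with none called.

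The light difference was then set against the heavy one in a test of the interaction of fraction (light over heavy) and shRNA. Since the shNSi line alone has a moderate pool, the heavy pools of the lines may hold unlike parts of the gradient. shNSi light 1 was 0.916 and 0.906 from the shDAP5 heavy libraries and 1.32 and 1.43 from the shNSi heavy ones. If the heavy pools were cut differently, each light over heavy difference compares unlike samples, which was not tested. With edgeR, 1356 of 15989 genes (8.48%) had a light change that differed from the heavy change, the light change being the lower one in 271 (1.69%) and the higher one in 1085 (6.79%), at an adjusted p under 0.05. At an unadjusted p under 0.05 there were 3987 (24.9%), with the light change lower in 9.07% and higher in 15.9% of genes. Without shDAP5 culture 2 the count was 2, without shDAP5 culture 1 633, without shNSi culture 1 2964 and without shNSi culture 2 752. With no term for each culture it was 0, with 3423 at an unadjusted p under 0.05. For each of the 10 genes named from these calls, the heavy difference exceeded the light one in size.

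TOP2A, topoisomerase II alpha, had a log2 light over heavy ratio of −2.03 and −3.26 in shNSi and −0.12 and 0.38 in shDAP5, so the lines stood well apart. The difference was 2.78 (standard error 0.54, adjusted p = 0.00863), made up of 0.63 in light and −2.15 in heavy. Its light level was 208 and 226 CPM in shNSi and 330 and 340 CPM in shDAP5. THOC2 of the mRNA export complex, the ubiquitin-activating enzyme UBA6, carboxypeptidase D (CPD) and the splicing factor SF3B1 had differences of 2.70, 2.66, 2.62 and 2.61. Their light parts were 1.00, 0.94, −0.18 and 0.31 and their heavy parts −1.66, −1.68, −2.75 and −2.29.

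At the other end, NDUFB7 of respiratory complex I had a log2 light over heavy ratio of 2.07 and 2.17 in shNSi and 0.75 and −0.55 in shDAP5. The difference of −2.04 (standard error 0.47, adjusted p = 0.0120) was −0.61 in light and 1.41 in heavy. Its light level was 214 and 270 CPM against 187 and 132 CPM. NCBP2-AS2, the transcription factor gene MESP1, C19orf70 of mitochondrial cristae and the mannosyltransferase subunit DPM3 had differences of −2.19, −2.08, −2.07 and −2.06. In these 5 genes the light part lay between −0.67 and 0.16 and the heavy part between 1.37 and 1.94. NCBP2-AS2 is antisense to its neighbor, and without strand in the counting their reads cannot be told apart.

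By coding length the difference between fractions ran from a median of −0.76 in the shortest bin to 1.18 in the longest, with a Spearman's rho of 0.709 across 12670 genes. The heavy difference alone ran from 0.80 to −0.92 over the same bins, a wider range than that of the light difference. Among the lists, the 16 mRNAs listed by the study had a median of 1.51, with 9 higher past the adjusted threshold and 0 lower, against 6.79% and 1.69% of all genes tested. The study chose that list from these samples for reduction on polysomes, so its direction here is not independent evidence. Collagen and laminin chains had 1.60, with 14 of 29 higher. Cytosolic ribosomal proteins had −1.19, with 2 of 79 lower past the threshold and 42 at an unadjusted p under 0.05 (9.07% of all genes), and respiratory chain subunits −1.19, with 22 of 74 lower and 1 higher. Median coding length of the light members was 3144 bases for the study's list and 5128.5 for collagen and laminin chains. It was 468 for cytosolic ribosomal proteins and 469.5 for respiratory chain subunits, against 1425 for all members. Whether these lists differed beyond their coding length was not tested.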

How the data were processed

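The authors deposited whole-number read counts per gene symbol, not normalized, for all 14 libraries. The submitters' processing notes name STAR 2.6.0a, limma and hg19, and the name of the deposited table names featureCounts. It also holds the letters rev, which may mark a strand setting but are not explained, and how reads over overlapping genes were counted is not given in the sources used here. Of 58434 symbols, 27761 had no read in any library and 27 are calendar dates, which were kept unaltered. Depth was at least 25899838 counts per library, and each group had 2 replicates, which limits precision. Samples were grouped by title, and the 2 shDAP5 libraries titled total polysome were taken as total mRNA by their column code. The members and gene lists were chosen with earlier results of these data known.

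Counts were tested in R 4.3.3 with edgeR 4.0.16 (TMM, robust quasi-likelihood test), keeping genes with at least 10 counts in 2 libraries of each fit, with Benjamini-Hochberg adjustment over all genes tested and a threshold of 0.05. Interaction fits of 8 libraries held a term for each culture. Differences of library means used log2 of CPM plus 1. The scripts were tested on simulated data. Named genes were EIF4G2, the 10 lowest and 10 highest light changes (5 and 5 in each interaction) with a mean of at least 10 CPM, an adjusted p under 0.05 (unadjusted where fewer than 20 genes passed) and no overlap between lines, and in each list the 2 lowest p-values and 2 highest levels, with short lists in full. Alternatives were DESeq2 1.42.0, limma 3.58.1 on quantile-normalized log2 CPM plus 1, library size without TMM, other filters, no robust estimation, all libraries in 1 fit, no culture term, a replicate block, the moderate pool alone or added to light as control, and each library left out. Positions and coding lengths come from GENCODE v29 on GRCh38, not from the build of the counts, and were not converted. No test of gene sets was made. A few genes that the naming rule or the lists hold are counted but not reported here by name.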

Additional observations from a re-analysis of the deposited data

Results flagged for a closer look

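The difference between the light and the heavy change was tested itself, by the interaction of fraction and shRNA in edgeR (Benjamini-Hochberg adjusted), and 1356 genes passed the adjusted threshold. The doubt about whether the heavy pools of the lines match holds for all of them. The named genes with a light change above the heavy change were TOP2A (2.78), THOC2 (2.70), UBA6 (2.66), CPD (2.62) and SF3B1 (2.61), and those with a light change below the heavy change were NCBP2-AS2 (−2.19), MESP1 (−2.08), C19orf70 (−2.07), DPM3 (−2.06) and NDUFB7 (−2.04), as log2 differences with 2 cultures of each line. The direction was the same in both shDAP5 cultures for each of these 10 genes, which is how they were chosen. The count fell to 2 without shDAP5 culture 2.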

How the results depend on the processing

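In light polysomes the number of genes past the adjusted threshold, 0 with edgeR, was 108 with DESeq2, 244 with no filter on low counts (2218 at an unadjusted p under 0.05, against 1332), 1 with all 14 libraries in 1 fit, and from 2 to 4576 with each library left out, where the unadjusted count ran from 315 to 6309. With the shNSi light and moderate pools summed it was 0, and the unadjusted count was 4141. EIF4G2 in light polysomes passed with DESeq2 (−1.34), with no filter (−1.35) and when either shNSi light library was left out, and did not pass when either shDAP5 light library was. With each library left out its log2 fold change stayed between −1.47 and −1.21. In total mRNA EIF4G2 was −1.07 with library size without TMM (adjusted p = 0.0503) and between −1.36 and −0.90 with each library left out, where it did not pass without shDAP5 total 1. With the moderate control, leaving out each library gave 395 to 9735 genes past the adjusted threshold, 2987 to 10283 at an unadjusted p under 0.05, and −1.96 to −1.49 for EIF4G2, which did not pass when either shDAP5 light library was left out. Light translation efficiency gave 3 genes past the adjusted threshold with no filter, an unadjusted count of 451 with DESeq2 and of 116 with no term for each culture, and with each culture left out 0 to 2127 genes past the adjusted threshold and 290 to 4146 at an unadjusted p under 0.05. The light change against the heavy change gave 0 genes with no term for each culture, and with each culture left out 2 to 2964 past the adjusted threshold and 1141 to 4923 at an unadjusted p under 0.05. Where a library is left out, the lone replicate of its group is assumed to vary like the others, and fewer samples enter the fit. The cause of the other differences was not tested.

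The replicate numbers of the 2 lines share only a number. Across genes, deviations from the line means correlated between same-numbered replicates at 0.05 in light polysomes, −0.13 in total mRNA and −0.22 in the light over heavy ratio. With the number as a replicate block, 131 genes passed in light polysomes. In the light change against the heavy change 840 passed with the block and 3322 with the numbers crossed, which was added after seeing the data. With the numbers crossed in total mRNA, EIF4G2 was −1.12 (adjusted p = 0.0167).

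In light polysomes and in light translation efficiency no gene passed the adjusted threshold, so no passing value could turn its direction there. In the other comparisons, none of the values recomputed that passed it turned its direction under an alternative. Values that did not pass did turn in light polysomes. JUN went from −0.75 to 0.63 without shNSi light 2, and the proteasome median from −0.51 to 0.14. The list medians moved by less than the spread of the list's median level between replicates in 297 recomputations, and by more in 53. Depth limits genes near the minimum of 10 counts, such as FLI1, and all values rest on 2 replicates per group.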
